A study of Mus musculus with 9 samples.

Results

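The 40 genes described here encode proteins of autophagy and of the lysosome, and their mRNA was measured in mouse liver. They were chosen by name, with earlier results of these data known. A probe set stood for a gene where the array annotation gave it that gene's symbol alone. All 40 were measured, on 42 of the 28815 probe sets of the Affymetrix Mouse Gene 1.0 ST array, on which 19935 genes in all had such a probe set. Autophagy machinery accounted for 23 genes and lysosomal proteins for 16, and the remaining gene was *Tfeb*, a transcription factor of lysosomal genes.

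WTAL mice were wild type with free access to chow. WTCR mice were wild type and received a calorie restricted (CR) chow diet for a short term, with intake lowered in successive steps. *Dgat1*-/-AL mice lacked DGAT1, which makes triglyceride from diacylglycerol, in all tissues and had free access to chow. All mice were females of 15 to 16 months on a C57BL/6J background, and each of the 9 arrays held the liver RNA of 1 mouse, with 3 mice per group. The comparisons ask how livers under CR and livers without DGAT1 each differ from those of wild-type mice that ate freely, and from each other.

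In autophagy a membrane grows around cytoplasm, organelles or lipid droplets, closes into an autophagosome and fuses with a lysosome, whose acid hydrolases break down the contents. The ULK complex starts the process, a phosphatidylinositol 3-kinase complex marks the membrane, and conjugation enzymes attach proteins of the LC3 and GABARAP families to it. In liver the pathway is known for its response to fasting and for the breakdown of stored lipid, and TFEB is known to activate genes of both autophagosome and lysosome when nutrients are short.

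Values are log2 signals, on which a difference of 1 is a doubling. A gene was called higher or lower in a comparison where the fold change was over 1.3 and the unadjusted p from limma was under 0.05, and the p adjusted by the Benjamini-Hochberg method over all probe sets is given beside it. Over all probe sets, the SD within a group had a median of 0.0974 to 0.124 on the log2 scale. Hepatocyte markers were strong on every array, and the mean log2 signal of the 7 measured markers was 13.10 to 13.38. The *Dgat1* log2 signal was 6.14, 5.84 and 5.39 in *Dgat1*-/-AL, 8.89, 8.76 and 8.56 in WTCR, and 7.86 and 8.04 in WTAL replicates 1 and 3. In the array labelled WTAL replicate 2 it was 5.67, which goes against the label, so each comparison with WTAL was also run without that array. *Dgat1*-/-AL replicate 1 also stood apart, with the lowest weight of the 9 arrays (0.355) when arrays were weighted by their fit.

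TFEB and related factors are known to bind the hexamer CACGTG near the start sites of lysosomal genes. The RefSeq promoter table (GRCm38.p6), which covers 250 bases before to 50 bases after each start site, held 32 of the 40 genes and 27025 genes in all. The missing entries were *Rb1cc1*, *Becn1*, *Atg12*, *Atg16l1*, *Map1lc3a*, *Ctsb*, *Npc1* and *Atp6v1h*. The hexamer reads the same on both strands, and it occurred in 12 of the 32 promoters (37.5%), against 8.09% of all promoters of the table. It occurred in 7 of 13 lysosomal promoters and 5 of 18 autophagy promoters. The octamer TCACGTGA, which contains the hexamer, occurred in 6 of the 32 (18.8%), against 1.12% of all. The longer CLEAR element GTCACGTGAC, which contains both, occurred in 0 of the 32 and in 0.370% of all. The 5 stretches that follow are 80 bases each, upstream of the start site and written 5′ to 3′ on the gene's strand, with CACGTG in capitals. The first 3 are from genes called in at least 1 comparison, and the last 2 are from genes that were not called, *Lamp1* with the most copies before the start site (4) and *Mcoln1*, which held 2, as did *Atg3*. *Atp6v0d1*, which was also called, held the hexamer from -3 on and is not shown.

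*Ctsl*, chr13:64370691-64370770, minus strand: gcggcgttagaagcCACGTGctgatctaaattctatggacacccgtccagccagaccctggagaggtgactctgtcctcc
*Bnip3*, chr7:138909572-138909651, minus strand: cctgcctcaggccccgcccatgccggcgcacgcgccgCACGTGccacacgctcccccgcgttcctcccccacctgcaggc
*Ctsd*, chr7:142387883-142387962, minus strand: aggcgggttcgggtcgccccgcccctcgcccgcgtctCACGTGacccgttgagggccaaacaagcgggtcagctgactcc
*Lamp1*, chr8:13159081-13159160, plus strand: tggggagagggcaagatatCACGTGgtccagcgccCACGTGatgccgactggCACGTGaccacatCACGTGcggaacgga
*Mcoln1*, chr8:3500437-3500516, plus strand: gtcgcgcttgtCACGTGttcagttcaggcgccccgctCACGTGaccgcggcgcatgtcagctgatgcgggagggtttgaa

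Counted from the start site, the hexamer began at -236 in *Ctsl*, at -108 in *Bnip3*, at -98 in the stretch of *Ctsd* shown (with another at -245), at -61, -45, -28 and -15 in *Lamp1*, and at -71 and -45 in *Mcoln1*. A copy of these letters is a description of the sequence and not a measured binding site. Among the genes with a promoter entry, 3 of the 7 called in WTCR against WTAL held the hexamer and 9 of the 25 that were not called held it.

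In WTCR livers 7 of the 40 genes were higher than in WTAL and 1 was lower. The 7 were *Bnip3*, *Npc1*, *Map1lc3b*, *Ctsl*, *Wipi1*, *Uvrag* and *Atp6v0d1*, with log2 fold changes of 0.50 to 1.02, and the 1 was *Ulk2* at -0.63. Of all probe sets 4.25% were called higher and 3.81% lower in this comparison, against 17.5% and 2.5% of the 40 genes. Because the 40 genes were chosen with earlier results of these data known, these shares are a description and not a test. In *Dgat1*-/-AL livers 1 gene, *Ctsl*, was higher than in WTAL and 0 were lower, where 0.465% of all probe sets were called higher and 0.760% lower. Between the groups themselves 7 genes were higher and 1 lower in WTCR than in *Dgat1*-/-AL (4.66% and 3.93% of all probe sets). *Bnip3*, *Map1lc3b*, *Wipi1*, *Uvrag* and *Ulk2* were called in both WTCR comparisons, which share the WTCR arrays. In all 11 genes were called in at least 1 comparison, 7 of autophagy and 4 of the lysosome, and 29 in none. For all probe sets the shares are those given per comparison, and a joint share was not taken.

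**Figure D1:**
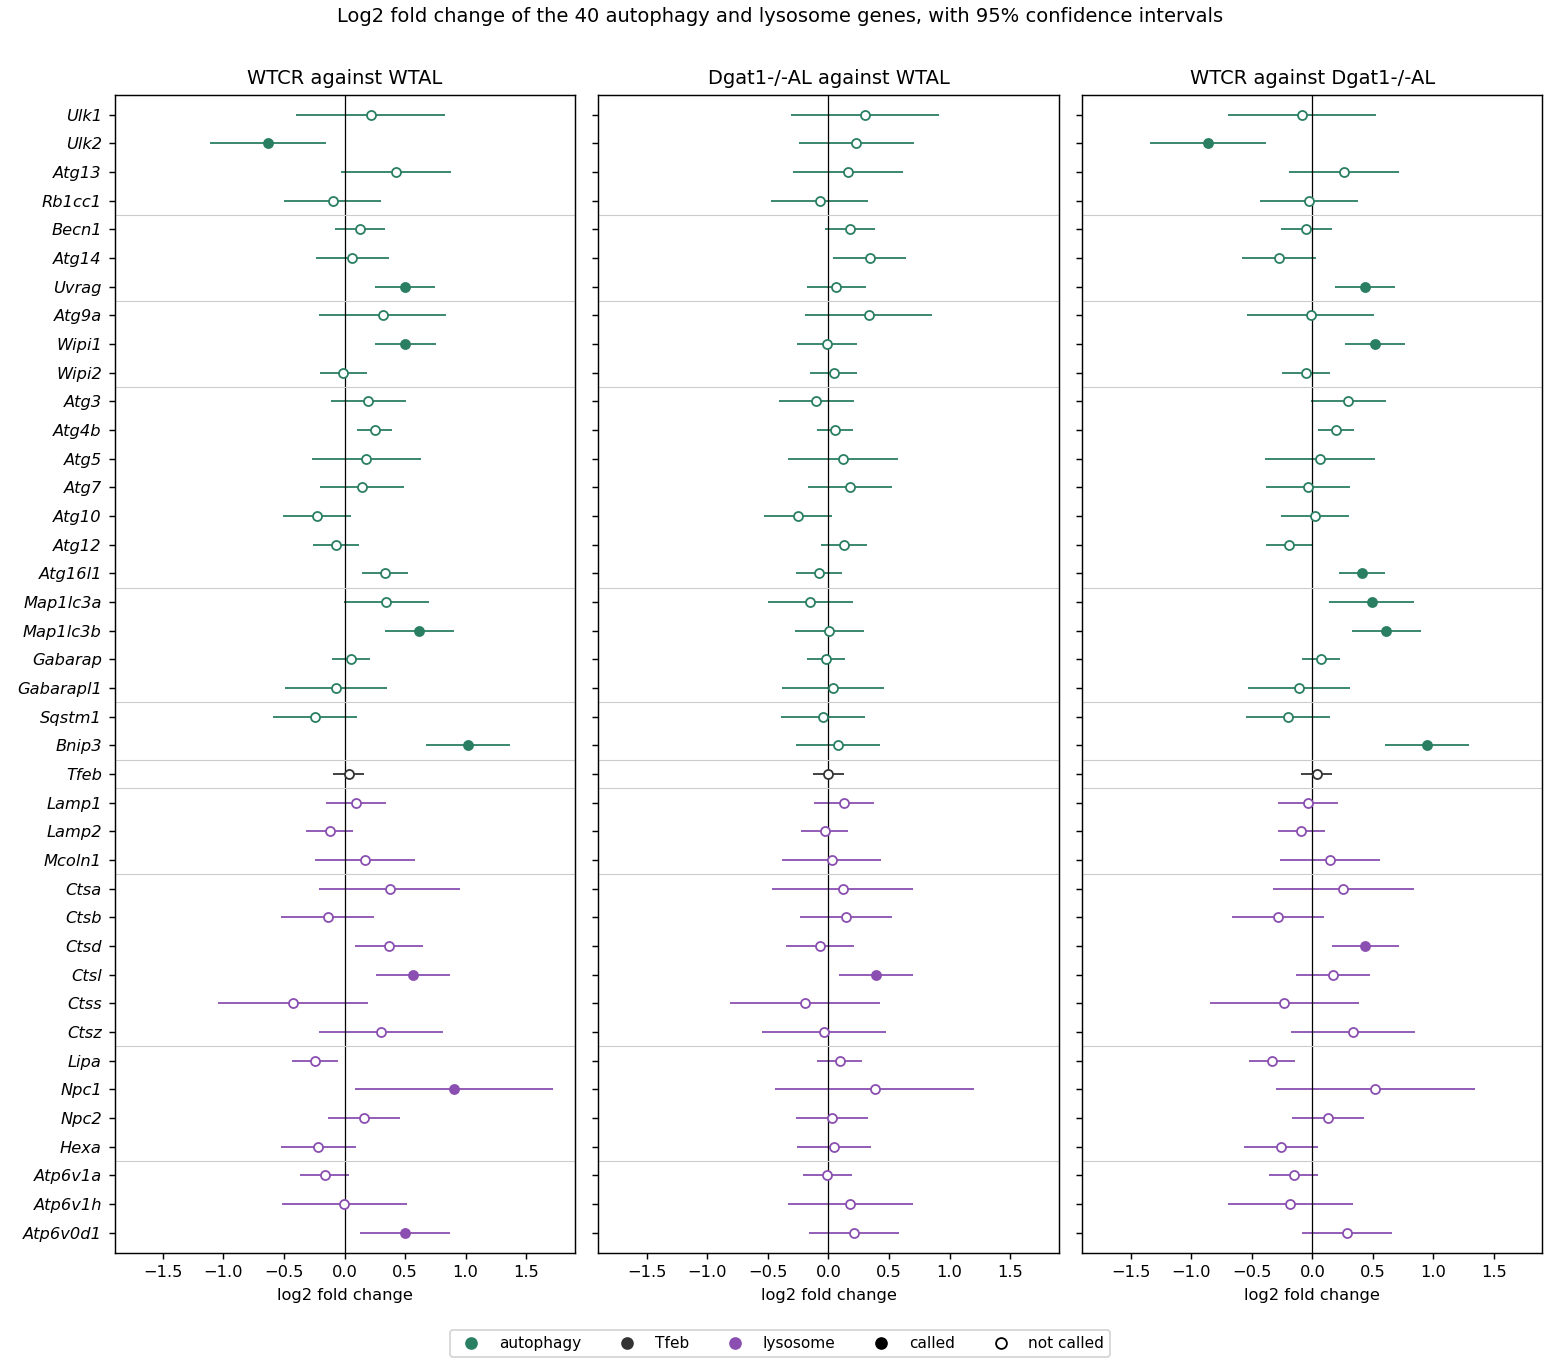
Log2 fold change (x axis) of the 40 genes (y axis, in order of their roles, with gray lines between roles) in the 3 comparisons, with 95% confidence intervals from limma. Green points are autophagy genes, purple points lysosomal genes and the black point *Tfeb*, and filled points are called. In WTCR against WTAL *Bnip3* lies farthest to the right at 1.02 and *Ulk2* farthest to the left at -0.63, and the single filled point in *Dgat1*-/-AL against WTAL is *Ctsl* at 0.39.

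At an adjusted p under 0.05 limma called 4 of the 40 genes in WTCR against WTAL, all higher (3.03% of all probe sets either way), and 4 in WTCR against *Dgat1*-/-AL, all higher (3.06%). In *Dgat1*-/-AL against WTAL limma called 0 of the 40 and 0 of all probe sets at that threshold, while 2 of the 40 genes (*Atg14* and *Ctsl*) and 1316 probe sets (4.57%) had an unadjusted p under 0.05. Without the array labelled WTAL replicate 2 the counts at the fold rule were again 7 higher and 1 lower in WTCR and 1 higher in *Dgat1*-/-AL, with *Ctsd* (0.44) called in WTCR in place of *Npc1* (0.98, no longer called). Of all probe sets 4.03% were then higher and 4.13% lower in WTCR, and 0.524% higher in *Dgat1*-/-AL.

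Of the 4 initiation genes 1 was called. *Ulk2* encodes a kinase that starts autophagosome formation alongside its relative ULK1. Its log2 signal was 7.99, 7.94 and 8.03 in WTAL, 7.64, 7.07 and 7.36 in WTCR, and 8.71, 8.06 and 7.88 in *Dgat1*-/-AL. Every WTCR array lay below every other array. The log2 fold change of WTCR was -0.63 ± 0.21 (SE, adjusted p = 0.18) against WTAL and -0.86 ± 0.21 (adjusted p = 0.070) against *Dgat1*-/-AL. The WTAL difference was -0.49 and no longer called without WTCR replicate 2. *Ulk1* gave 0.22 ± 0.27 in WTCR and 0.30 ± 0.27 in *Dgat1*-/-AL and *Atg13*, which encodes a regulatory subunit of the complex, 0.42 ± 0.20 and 0.16 ± 0.20, and neither was called. *Rb1cc1*, the gene of the scaffold FIP200, gave -0.10 and -0.07. *Atg13* lay just outside the p threshold in WTCR, and it was called with only the compared groups in the model (0.42, unadjusted p = 0.025 from limma) and with arrays weighted by their fit.

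Of the 3 genes of the phosphatidylinositol 3-kinase complex, *Uvrag* was higher in WTCR. It encodes a partner of Beclin 1 that is known for autophagosome maturation. The *Uvrag* signal was 7.92, 7.91 and 7.86 in WTAL, 8.47, 8.13 and 8.59 in WTCR, and 7.96, 7.92 and 7.999 in *Dgat1*-/-AL. The WTCR arrays lay above all 6 others, which spanned less than the WTCR arrays did. The log2 fold change was 0.50 ± 0.11 (adjusted p = 0.046) against WTAL and 0.43 ± 0.11 (adjusted p = 0.073) against *Dgat1*-/-AL, the latter falling to 0.34 and out of the call without WTCR replicate 3. *Becn1*, the gene of Beclin 1, gave 0.13 ± 0.09 in WTCR and 0.18 ± 0.09 in *Dgat1*-/-AL. *Atg14*, whose product directs the complex to the site of formation, gave 0.06 ± 0.13 in WTCR and 0.34 ± 0.13 in *Dgat1*-/-AL. The *Dgat1*-/-AL difference had an unadjusted p of 0.031 from limma (adjusted p = 0.97) and a fold change of 1.27, just under the rule.

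*Wipi1* encodes a protein that binds the phosphoinositide made by that kinase on the growing membrane. Its signal was 6.45, 6.42 and 6.36 in WTAL, 6.91, 6.81 and 7.02 in WTCR, and 6.64, 6.32 and 6.23 in *Dgat1*-/-AL. The WTCR arrays lay above all the others, and the *Dgat1*-/-AL arrays lay on both sides of WTAL. The difference was 0.50 ± 0.11 (adjusted p = 0.049) against WTAL and 0.52 ± 0.11 (adjusted p = 0.045) against *Dgat1*-/-AL, and both calls held without any 1 array. The relative *Wipi2* gave -0.01 ± 0.09 in WTCR and 0.04 ± 0.09 in *Dgat1*-/-AL. *Atg9a*, the gene of a membrane protein whose vesicles feed the autophagosome, gave 0.32 ± 0.23 and 0.33 ± 0.23. In *Dgat1*-/-AL its log2 signal was 7.85 in replicate 1 and 6.84 and 6.95 in the other arrays.

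Of the 7 genes that conjugate ATG12 and LC3, 0 were called against WTAL in either group. *Atg16l1* encodes the protein that brings the conjugation enzymes to the membrane. The *Atg16l1* signal was 7.56, 7.71 and 7.67 in WTAL, 8.06, 7.91 and 7.97 in WTCR, and 7.70, 7.43 and 7.59 in *Dgat1*-/-AL. The WTCR arrays lay above all the others. Against WTAL the difference of 0.33 ± 0.08 was a fold change of 1.26 and was not called (adjusted p = 0.082), and against *Dgat1*-/-AL it was 0.41 ± 0.08 and was called (adjusted p = 0.041). That call ended at 0.37 without WTCR replicate 1 and at 0.34 without *Dgat1*-/-AL replicate 2. *Atg4b*, the gene of a protease that trims LC3, gave 0.25 ± 0.06 in WTCR (adjusted p = 0.088), under the fold rule but with all WTCR arrays above all others. *Atg3*, the gene of the enzyme that passes LC3 to lipid, gave 0.20 ± 0.14 in WTCR and -0.10 ± 0.14 in *Dgat1*-/-AL. *Atg10*, the gene of the enzyme that acts on ATG12, gave -0.23 ± 0.12 and -0.25 ± 0.12. *Atg5*, *Atg7* and *Atg12* gave -0.07 to 0.18 in both.

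Of the LC3 and GABARAP genes, *Map1lc3b* was called in both WTCR comparisons and *Map1lc3a* in 1. *Map1lc3b* encodes LC3B, the protein whose lipid-bound form marks autophagosomes. Its log2 signal was 9.10, 9.35 and 9.17 in WTAL, 9.92, 9.88 and 9.67 in WTCR, and 9.46, 9.12 and 9.05 in *Dgat1*-/-AL. All WTCR arrays lay above all others. It was higher in WTCR by 0.62 ± 0.12 (adjusted p = 0.037) than in WTAL and by 0.61 ± 0.12 (adjusted p = 0.040) than in *Dgat1*-/-AL, and its other probe set gave 0.66 ± 0.12 and 0.63 ± 0.12. In *Dgat1*-/-AL against WTAL it gave 0.01 ± 0.12.

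*Map1lc3a*, the gene of LC3A, had log2 signals of 7.36, 7.24 and 7.24 in WTAL, 7.77, 7.68 and 7.42 in WTCR, and 7.49, 6.89 and 7.02 in *Dgat1*-/-AL. Its WTCR arrays lay above WTAL but overlapped *Dgat1*-/-AL. The direct difference between WTCR and *Dgat1*-/-AL was 0.49 ± 0.15 (adjusted p = 0.15) and called higher, a call that ended at 0.37 without *Dgat1*-/-AL replicate 2. It gave 0.34 ± 0.15 against WTAL (adjusted p = 0.35), which was not called. *Gabarap* gave 0.05 ± 0.07 in WTCR and -0.02 ± 0.07 in *Dgat1*-/-AL. *Gabarapl1* gave -0.07 ± 0.18 and 0.03 ± 0.18, with confidence intervals of -0.49 to 0.35 and -0.39 to 0.46.

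*Bnip3* had the largest difference of the 40 genes in both WTCR comparisons. It encodes a protein of the outer mitochondrial membrane that binds LC3 in the autophagy of mitochondria. On the log2 scale its signal was 10.38, 10.51 and 10.30 in WTAL, 11.38, 11.57 and 11.30 in WTCR, and 10.10, 10.68 and 10.64 in *Dgat1*-/-AL. The lowest WTCR array stood above the highest of the other 6. Against WTAL the WTCR signal of *Bnip3* was higher by 2.03-fold (log2 fold change 1.02 ± 0.15, adjusted p = 0.015), and against *Dgat1*-/-AL by 1.92-fold (0.94 ± 0.15, adjusted p = 0.018). Its other probe set gave 0.99 ± 0.16 and 1.06 ± 0.16. *Sqstm1*, the gene of the cargo receptor p62 that autophagy itself degrades as a protein, was not called, at -0.25 ± 0.15 in WTCR and -0.04 ± 0.15 in *Dgat1*-/-AL. *Tfeb* mRNA gave 0.03 ± 0.06 and -0.00 ± 0.06, with confidence intervals of -0.09 to 0.16 and -0.13 to 0.12. Its log2 signal was low, at 6.17 to 6.28, where the arrays had medians of 5.80 to 5.84 over all probe sets.

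**Figure D2:**
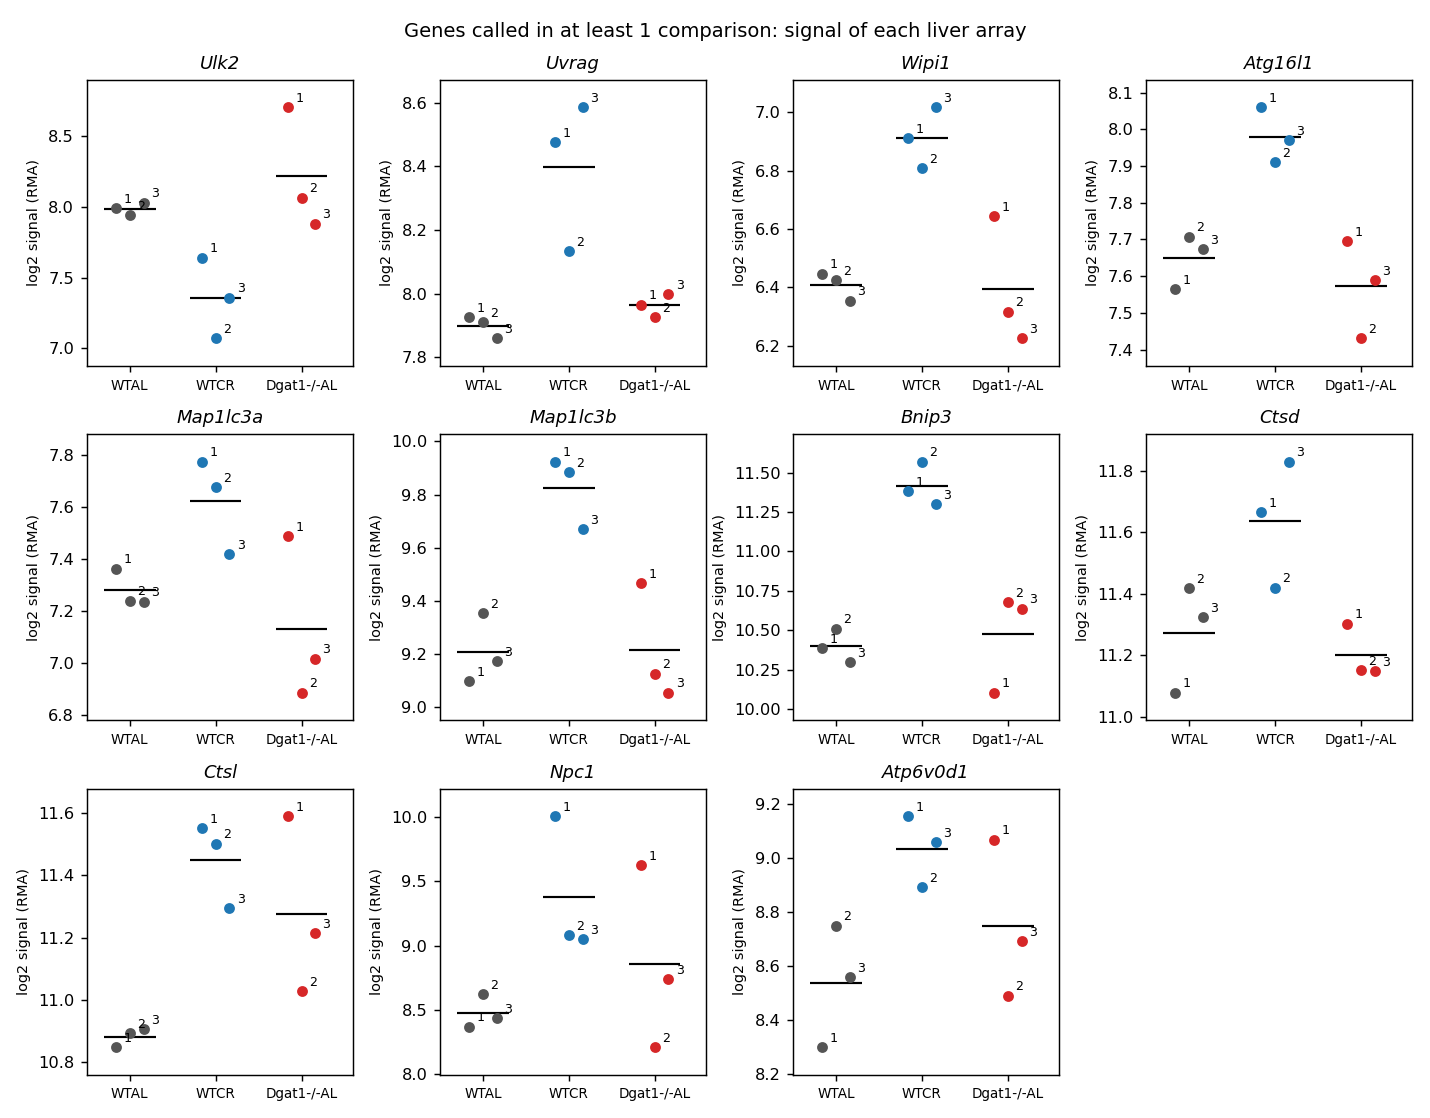
Log2 signal after RMA (y axis, on its own scale in each panel) of the 11 genes called in at least 1 comparison, for the 9 mice, grouped along the x axis. A point is 1 mouse, the digit beside it is the replicate number, and lines are group means. In *Bnip3* the WTCR arrays lie at 11.30 to 11.57 and all others at or below 10.68, and in *Ctsl* all WTCR and *Dgat1*-/-AL arrays lie above the WTAL arrays.

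*Lamp1* and *Lamp2*, which encode the most abundant proteins of the lysosomal membrane, were not called and gave 0.09 ± 0.11 and -0.12 ± 0.08 in WTCR and 0.13 ± 0.11 and -0.03 ± 0.08 in *Dgat1*-/-AL. *Mcoln1*, the gene of a calcium channel of the lysosome, was not called either and gave 0.17 ± 0.18 and 0.03 ± 0.18. The promoters of *Lamp1* and *Mcoln1* are those shown above with several copies of the hexamer.

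Cathepsins are the proteases of the lysosome, and of the 6 measured *Ctsl* was higher in both groups than in WTAL. On the log2 scale its signal was 10.85, 10.89 and 10.91 in WTAL, 11.55, 11.50 and 11.30 in WTCR, and 11.59, 11.03 and 11.22 in *Dgat1*-/-AL. All arrays of both groups lay above the WTAL arrays, which spread by little, and the groups overlapped each other. The log2 fold change was 0.57 ± 0.13 (adjusted p = 0.066) in WTCR and 0.39 ± 0.13 (adjusted p = 0.97) in *Dgat1*-/-AL, and the direct difference of 0.17 ± 0.13 was not called (confidence interval -0.13 to 0.48). Both comparisons subtract the same WTAL arrays. The WTCR call held without any 1 array, whereas the *Dgat1*-/-AL call ended at 0.38 without WTAL replicate 1, at 0.24 without *Dgat1*-/-AL replicate 1 and at 0.31 with arrays weighted by their fit.

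*Ctsd*, the gene of the aspartic protease cathepsin D, had log2 signals of 11.08, 11.42 and 11.32 in WTAL, 11.67, 11.42 and 11.83 in WTCR, and 11.30, 11.15 and 11.15 in *Dgat1*-/-AL. The WTCR arrays lay above *Dgat1*-/-AL, but WTCR replicate 2 was level with the highest WTAL array. The direct difference of 0.44 ± 0.12 (adjusted p = 0.11) was called higher in WTCR, a call that ended at 0.34 without WTCR replicate 3 and at 0.29 when the arrays were quantile-normalized again. Against WTAL it gave 0.37 ± 0.12 (adjusted p = 0.18), a fold change of 1.29 that was just under the rule. *Ctsa* gave 0.37 ± 0.26 in WTCR and 0.12 ± 0.26 in *Dgat1*-/-AL, and *Ctsb* and *Ctsz* gave -0.14 and 0.30 in WTCR and 0.14 and -0.03 in *Dgat1*-/-AL.

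*Ctss* encodes cathepsin S, which is known from antigen-presenting cells. It was not called, at -0.43 ± 0.27 in WTCR and -0.19 ± 0.27 in *Dgat1*-/-AL. Its WTAL signals were 8.44, 9.06 and 9.20, and in the same arrays the mean of 16 Kupffer cell and macrophage markers lay at -0.37, 0.20 and 0.18 from the WTAL mean. Without WTAL replicate 1 *Ctss* was lower in WTCR (-0.65), and *Hexa* was lower too (-0.38). The part of macrophages in these values was not tested.

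*Npc1* and *Lipa*, whose products act in turn on lipid that reaches the lysosome, gave opposite signs in WTCR. *Npc1* encodes the membrane protein that exports cholesterol, with log2 signals of 8.37, 8.62 and 8.43 in WTAL, 10.01, 9.08 and 9.05 in WTCR, and 9.63, 8.21 and 8.74 in *Dgat1*-/-AL. All WTCR arrays lay above WTAL, while both in WTCR and in *Dgat1*-/-AL replicate 1 stood far above the rest of its group. It was called higher in WTCR than in WTAL (0.90 ± 0.36, adjusted p = 0.27). That call ended without any 1 of the WTAL arrays (0.85 to 0.98) and at 0.59 without WTCR replicate 1. Against *Dgat1*-/-AL it gave 0.52 ± 0.36 and was not called, but with the replicate number as a block in a model of those 2 groups it was (0.52, unadjusted p = 0.013 from limma).

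*Lipa* encodes the acid lipase that releases fatty acids and cholesterol from lipoproteins and lipid droplets. Its signal was 11.09, 11.09 and 11.14 in WTAL, 10.96, 10.67 and 10.96 in WTCR, and 11.18, 11.21 and 11.20 in *Dgat1*-/-AL. The 3 groups did not overlap, in the order WTCR, WTAL and *Dgat1*-/-AL, but the differences were small. It gave -0.24 ± 0.08 in WTCR against WTAL (adjusted p = 0.19) and -0.34 ± 0.08 against *Dgat1*-/-AL (adjusted p = 0.073), both under the fold rule. The latter passed the rule without WTCR replicate 1 or 3 (-0.38) and when the arrays were quantile-normalized again (-0.49). *Hexa*, a gene of ganglioside breakdown, gave -0.22 ± 0.14 in WTCR and 0.04 ± 0.14 in *Dgat1*-/-AL. *Npc2*, whose product hands cholesterol to NPC1, gave 0.16 and 0.03.

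The V-ATPase is the proton pump that acidifies the lysosome. *Atp6v0d1*, the gene of a subunit that joins its membrane part to its cytosolic part, had log2 signals of 8.30, 8.75 and 8.56 in WTAL, 9.15, 8.89 and 9.06 in WTCR, and 9.07, 8.49 and 8.69 in *Dgat1*-/-AL. The WTCR arrays lay above WTAL and overlapped *Dgat1*-/-AL through replicate 1 of the latter. It was higher in WTCR by 0.50 ± 0.16 (adjusted p = 0.17), which fell to 0.38 and out of the call without WTAL replicate 1. The cytosolic subunits *Atp6v1a* and *Atp6v1h* gave -0.16 ± 0.09 and -0.00 ± 0.23 in WTCR and -0.01 ± 0.09 and 0.18 ± 0.23 in *Dgat1*-/-AL.

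Set beside each other, 4 of the 23 autophagy genes were higher and 1 lower in WTCR than in WTAL, and 3 of the 16 lysosomal genes were higher and 0 lower. Of all probe sets 4.25% were higher and 3.81% lower. The median log2 fold change was 0.18 for the autophagy genes and 0.13 for the lysosomal genes, beside 0.0023 for all probe sets. In 11 of the 23 autophagy genes and 4 of the 16 lysosomal genes all WTCR arrays lay above all WTAL arrays, as did those of 11.2% of all probe sets. In 1 autophagy gene and 2 lysosomal genes they lay below (8.44%). In *Dgat1*-/-AL against WTAL 0 of the 23 autophagy genes were called, with a median of 0.05, and 1 of the 16 lysosomal genes, with a median of 0.07. Of all probe sets 1.23% were called there. The autophagy median was 0.011 without *Dgat1*-/-AL replicate 1 and 0.081 without WTAL replicate 2. For the lysosomal genes it was -0.0029 without WTAL replicate 1, 0.027 without *Dgat1*-/-AL replicate 1, and 0.11 to 0.12 without any 1 of the other arrays of these groups. In 3 of the 40 genes (*Atg12*, *Ctsl* and *Lipa*) all *Dgat1*-/-AL arrays lay above WTAL and in 0 below, where 3.16% and 3.86% of all probe sets did so.

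Against *Dgat1*-/-AL, WTCR had 6 of the 23 autophagy genes and 1 of the 16 lysosomal genes higher, beside 4.66% of all probe sets. It had 1 of the 23 and 0 of the 16 lower, beside 3.93% of all probe sets. The medians were 0.02 and 0.05, and became -0.02 and -0.05 when the arrays were quantile-normalized again. All WTCR arrays lay above all *Dgat1*-/-AL arrays in 8 of the 40 genes and below them in 4 (9.05% and 7.10% of all probe sets). Without WTAL replicate 1 the WTCR medians against WTAL were 0.11 for the autophagy genes and 0.03 for the lysosomal genes. With the arrays quantile-normalized again they were 0.13 and 0.035.

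Array by array, the mean of the autophagy genes lay at -0.02, 0.02 and 0.00 from the WTAL mean in WTAL, at 0.24, 0.14 and 0.13 in WTCR, and at 0.17, -0.01 and 0.04 in *Dgat1*-/-AL. The mean of the lysosomal genes lay at -0.18, 0.10 and 0.08 in WTAL, at 0.26, 0.01 and 0.13 in WTCR, and at 0.30, -0.04 and 0.01 in *Dgat1*-/-AL. The autophagy means of WTCR did not overlap those of WTAL, and the lysosomal means did. The means of the 7 hepatocyte markers did not overlap either, at -0.06, 0.04 and 0.01 in WTAL and 0.22, 0.11 and 0.09 in WTCR. The autophagy mean minus the lysosomal mean was 0.16, -0.08 and -0.08 in WTAL, -0.02, 0.14 and -0.00 in WTCR, and -0.13, 0.03 and 0.03 in *Dgat1*-/-AL. These differences overlapped among all 3 groups. WTAL replicate 1 lay above every WTCR array, and the other WTAL arrays lay below every WTCR array. Whether the 2 lists differ by group was not tested.

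**Figure D3:**
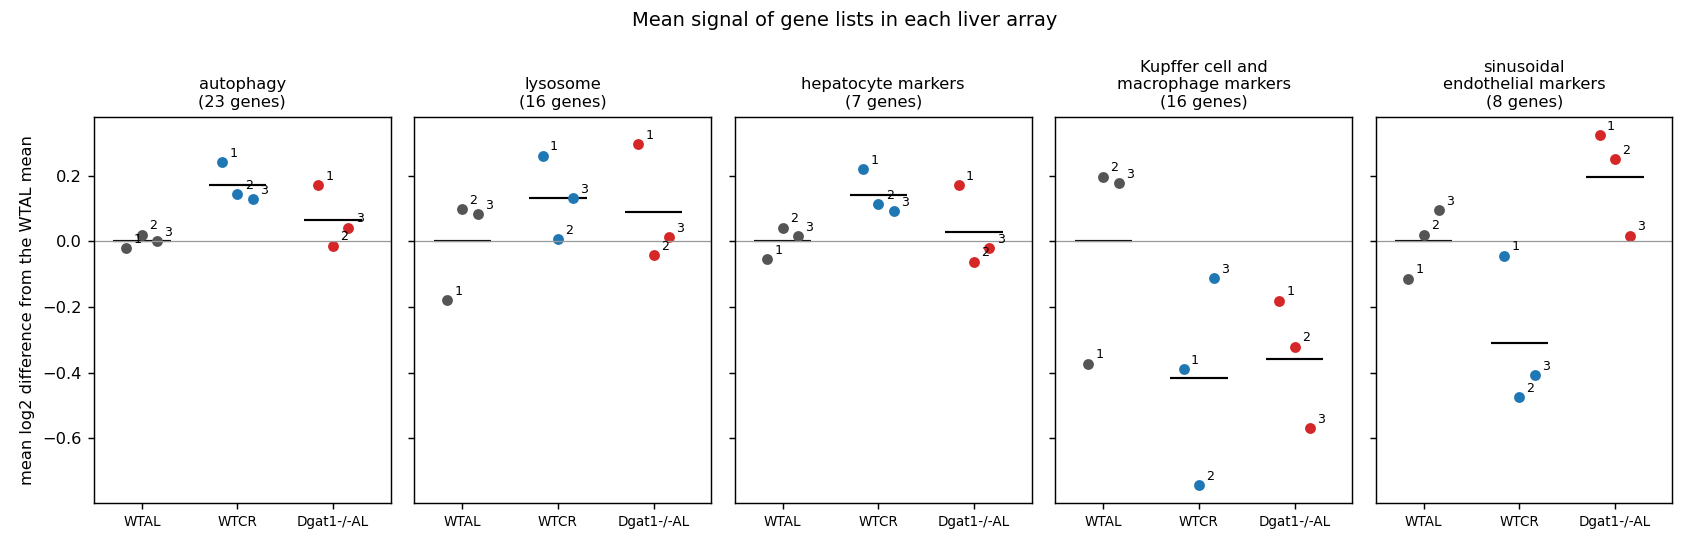
Difference from the WTAL group on the log2 scale (y axis), averaged over the autophagy genes, the lysosomal genes and 3 lists of cell type markers, for the 9 arrays grouped along the x axis. A digit gives the replicate and lines are group means. The autophagy genes lie at 0.13 to 0.24 in WTCR and the hepatocyte markers at 0.09 to 0.22, while WTAL replicate 1 is the lowest WTAL array in all 5 lists. The median over the hepatocyte markers, which is not drawn, was 0.01 to 0.14 in WTCR.

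Markers of liver cell types moved beside these genes. In bulk liver fewer cells of a type and less RNA per cell cannot be told apart. The mean of the 7 hepatocyte markers lay at 0.22, 0.11 and 0.09 in WTCR and at 0.17, -0.06 and -0.02 in *Dgat1*-/-AL, with 1 of 7 called higher in WTCR and 0 called in *Dgat1*-/-AL. Their median lay at 0.14, 0.01 and 0.03 in WTCR and at 0.19, -0.05 and -0.02 in *Dgat1*-/-AL. The median log2 fold change of these markers in WTCR against WTAL was 0.02. The macrophage markers lay at -0.39, -0.74 and -0.11 in WTCR, where 1 of 16 was higher and 7 were lower, and at -0.18, -0.32 and -0.57 in *Dgat1*-/-AL, where 5 of 16 were lower. The sinusoidal endothelial markers lay at -0.04, -0.47 and -0.41 in WTCR and at 0.32, 0.25 and 0.02 in *Dgat1*-/-AL, and 3 of 8 were higher and 2 lower in *Dgat1*-/-AL than in WTAL, 1 of 8 was lower in WTCR than in WTAL, and 6 of 8 were lower and 1 higher in WTCR than in *Dgat1*-/-AL. The stellate cell markers lay at -0.26, -0.29 and -0.26 in WTCR (3 of 8 lower), the B cell markers at -0.74, -0.80 and -0.80 (4 of 6 lower) and the T and NK cell markers at -0.23, -0.25 and -0.30 (2 of 8 lower), and 0 of 5 cholangiocyte markers were called. In *Dgat1*-/-AL the stellate cell markers lay at 0.07, 0.03 and 0.04 (0 of 8 called), the B cell markers at -0.65, -0.25 and -0.32 (1 of 6 lower) and the T and NK cell markers at -0.20, -0.08 and -0.05 (0 of 8 called). The part of these cell types in the values of the autophagy and lysosomal genes was not tested.

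The spread between mice differed among the groups. The median SD of the autophagy genes was 0.0837 in WTAL, 0.154 in WTCR and 0.220 in *Dgat1*-/-AL, and that of the lysosomal genes was 0.156, 0.160 and 0.233. Over all probe sets it was 0.0974, 0.104 and 0.124 in the same order. *Dgat1*-/-AL replicate 1 was the highest of the 9 arrays for 13 of the 40 genes and the lowest for 7. In 28 of the 40 genes it was the array farthest from its group, 20 times above and 8 times below, and in 15 its gap to the mean of the other *Dgat1*-/-AL arrays was over 0.5. *Ulk1* was at 7.96 there, against 6.84 and 6.87, and *Npc1* at 9.63, against 8.21 and 8.74. In the other direction *Rb1cc1* was at 8.15 there, against 8.81 and 8.80, *Atg3* at 9.04, against 9.58 and 9.57, and *Atg5* at 8.85, against 9.60 and 9.64.

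Without *Dgat1*-/-AL replicate 1, WTCR against *Dgat1*-/-AL gave 12 of the 40 genes higher and 1 lower, beside 5.76% and 4.59% of all probe sets. Then 0 of the 40 were called in *Dgat1*-/-AL against WTAL, while over all probe sets the total called in the latter comparison was 551 instead of 353. The 5 genes that were then called in WTCR against *Dgat1*-/-AL and not with all 9 arrays were *Atg13* (0.48), *Ctsa* (0.54), *Ctsz* (0.58), *Npc1* (0.91) and *Atp6v0d1* (0.44), of which *Atg13* (0.40) and *Ctsz* (0.50) were also called with arrays weighted by their fit. WTAL replicate 1 was the lowest WTAL array for 15 of the 16 lysosomal genes, counting *Lipa*, where it was level with replicate 2. It was the lowest of all 9 arrays for 8 of them. Without it 5 genes were higher and 3 lower in WTCR than in WTAL, beside 3.65% and 3.54% of all probe sets.

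**Figure D4:**
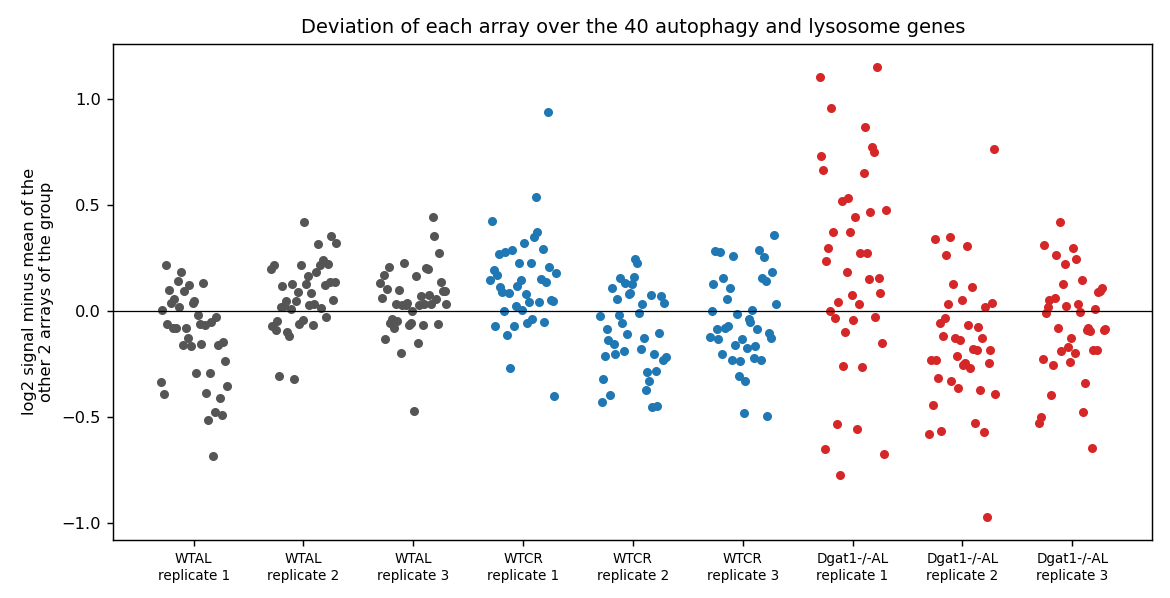
Log2 signal of each of the 40 genes minus the mean of the other arrays of the same group (y axis), for each of the 9 arrays (x axis). Points are genes. The points of *Dgat1*-/-AL replicate 1 spread most, with a median absolute value of 0.374 against 0.0778 to 0.238 in the other arrays.

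A further 86 genes of these pathways, also chosen with earlier results of these data known, were analysed in the same way. In WTCR 7 of the 86 were higher and 1 lower than in WTAL (8.14% and 1.16%, beside 4.25% and 3.81% of all probe sets). In *Dgat1*-/-AL against WTAL 0 of the 86 were called either way, beside 1.23% of all probe sets. There 3 of the 86 had an unadjusted p under 0.05 from limma (4.57% of all probe sets) and 0 an adjusted p under 0.05 (0 of all probe sets). Of 25 autophagy genes 1 was called in WTCR, *Atg4d*, the gene of a relative of ATG4B, at 0.46 ± 0.08 (adjusted p = 0.023). Of 33 genes of lysosomal hydrolases and other lysosomal proteins 2 were higher, the glycosidase genes *Gusb* (0.47 ± 0.21, adjusted p = 0.33) and *Neu1* (0.42 ± 0.10, adjusted p = 0.063), and 1 was lower, *Ctsc*, the gene of cathepsin C (-0.79 ± 0.28, adjusted p = 0.21). Of 11 V-ATPase genes 2 were higher, *Atp6v1d* (0.39 ± 0.06, adjusted p = 0.017) and *Atp6ap2* (0.43 ± 0.13, adjusted p = 0.13). The medians over all measured genes were 0.05 for autophagy, 0.12 for lysosomal proteins and 0.03 for the V-ATPase.

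Of 17 genes of TFE factors and of mTORC1, the nutrient-sensing kinase complex that holds autophagy back, 2 were higher in WTCR than in WTAL. *Rragc*, which encodes a Rag GTPase that brings mTORC1 to the lysosome, had log2 signals of 7.93, 8.06 and 8.09 in WTAL, 8.79, 8.47 and 8.65 in WTCR, and 8.14, 8.23 and 8.31 in *Dgat1*-/-AL. Both other groups lay above WTAL, WTCR further than *Dgat1*-/-AL. It was higher in WTCR by 0.61 ± 0.09 (adjusted p = 0.016) and gave 0.20 ± 0.09 in *Dgat1*-/-AL, which was not called. *Fnip1*, which encodes a folliculin-binding protein of the same pathway, was higher in WTCR by 0.54 ± 0.19 (adjusted p = 0.20).

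Between WTCR and *Dgat1*-/-AL 6 of the 86 were higher in WTCR and 4 lower (6.98% and 4.65%, beside 4.66% and 3.93% of all probe sets). The 4 were *Ctsc* (-0.99 ± 0.28), *Atg4c* (-0.56 ± 0.21), *Rptor*, the gene of the mTORC1 subunit raptor (-0.51 ± 0.22), and *Ctso* (-0.44 ± 0.11), with adjusted p of 0.068 to 0.31. The names *Atg4c*, *Rptor* and *Ctso* and those of *Vamp8* (0.39 ± 0.10) and *Hgsnat* (0.55 ± 0.07, adjusted p = 0.0091) among the 6 were chosen after their values were seen. The other 4 of the 6 were *Atg4d*, *Atp6ap2*, *Rragc* and *Fnip1*.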

How the data were processed

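Affymetrix Mouse Gene 1.0 ST arrays held liver RNA of 9 mice, 1 mouse per array. The deposited log2 signals had been background-corrected, quantile-normalized and summarized per probe set by the authors with RMA. The genome build was not given in the sources used here. No probe set was filtered out. Of the 28815, the platform annotation gave 21780 a single gene symbol, 1605 several and 5430 none. No 2 arrays held identical values. For each probe set limma 3.58.1 (R 4.3.3) fitted 1 mean per group over all 9 arrays, and p was adjusted by the Benjamini-Hochberg method over all probe sets. The script was tested on simulated data. Lists were described by counts and medians, and not tested. A gene with 2 probe sets (*Map1lc3b* and *Bnip3*) was represented by the brighter.

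The 40 genes and the further lists were chosen with earlier results of these data known. Values in every array were given for genes called in any comparison, and fold changes for the others with the largest differences in each role. Of the further pathway genes, those called against WTAL were named. Cell type markers were given as counts and means.

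The labels number the replicates in each group, and nothing says that a number marks a shared litter or day. Deviations from the group means correlated between same-numbered WTCR and *Dgat1*-/-AL arrays (r = 0.477, 0.252 and 0.211). These counted as paired by a rule of r over 0.1 in every pair, although differently numbered arrays of these groups gave -0.371 to 0.184. Between WTAL and either group r was -0.325 to 0.045 for same-numbered arrays, which did not count as paired, and -0.230 to 0.313 for the others. Precision is limited by the number of arrays. Alternatives were the groups in the model, the replicate block, a filter on low signals, centring, quantile normalization, array weights, a variance trend, the mean of probe sets, a rule on adjusted p, and each array left out in turn. The block within the compared groups alone was added after seeing the data.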

Additional observations from a re-analysis of the deposited data

How the results depend on the processing

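Medians and counts are in the order WTCR against WTAL, *Dgat1*-/-AL against WTAL and WTCR against *Dgat1*-/-AL. In the comparison in which a gene was called, its log2 fold change did not change sign under any alternative run. Leaving out 1 array moved the number of the 40 genes called higher to between 5 and 9, 0 and 2, and 5 and 12, and called lower to between 0 and 3, 0 and 0, and 1 and 3. Of all probe sets 3.65% to 4.71%, 0.42% to 1.07% and 4.07% to 5.76% were then called higher. Those called lower were 3.13% to 4.4%, 0.677% to 1.28% and 3% to 4.61%. In WTCR 12 genes were higher than in *Dgat1*-/-AL without *Dgat1*-/-AL replicate 1, 3 were lower than in *Dgat1*-/-AL without WTCR replicate 1, and 3 were lower than in WTAL without WTAL replicate 1. The matching shares of all probe sets were 5.76%, 4.61% and 3.54%. The median of the autophagy genes ranged from 0.11 to 0.18, 0.011 to 0.081 and 0.025 to 0.12, and that of the lysosomal genes from 0.03 to 0.17, -0.00 to 0.12 and -0.03 to 0.12.

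With a rule of adjusted p under 0.05 and no fold threshold 4, 0 and 4 genes were higher and 0, 0 and 0 lower. Of all probe sets 3.03%, 0% and 3.06% passed that rule either way. With the arrays quantile-normalized again the autophagy median was 0.13 in WTCR against WTAL and -0.020 against *Dgat1*-/-AL. The lysosomal median was then 0.035 in WTCR against WTAL and -0.055 against *Dgat1*-/-AL. In WTCR against *Dgat1*-/-AL 3 genes were lower, beside 4.24% of all probe sets. With arrays weighted by their fit 0 of the 40 genes were called in *Dgat1*-/-AL against WTAL, beside 1.62% of all probe sets. The autophagy median of WTCR against *Dgat1*-/-AL was then 0.079. The causes were not tested. The calls of *Wipi1*, *Map1lc3b* and *Bnip3* in both WTCR comparisons, of *Uvrag* and *Ctsl* in WTCR against WTAL and of *Ulk2* in WTCR against *Dgat1*-/-AL held at the fold rule under every alternative.

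With the replicate block over all arrays the counts were 7, 1 and 7 higher and 1, 0 and 1 lower, as without it. Of all probe sets 4.24%, 0.496% and 4.68% were then higher and 3.82%, 0.75% and 3.93% lower. With the replicate block and only the compared groups the counts were 7, 1 and 8 higher and 1, 0 and 1 lower. Of all probe sets 4.25%, 0.351% and 5.32% were higher and 3.81%, 0.639% and 4.06% lower. The same models without the block gave 8, 1 and 7 higher and 1, 0 and 1 lower. The shares of all probe sets there were 4.58%, 0.406% and 4.2% higher and 3.87%, 0.729% and 3.52% lower. The block added the call of *Npc1* between WTCR and *Dgat1*-/-AL, ended that of *Atg13* between WTCR and WTAL (0.42, unadjusted p = 0.054 from limma) and changed no other call. With the lowest 25% of mean signals left out all 40 genes stayed and 5.53% of the rest of the probe sets were called higher in WTCR than in WTAL.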
